A study of Mus musculus with 6 samples.

Results

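Complement and Fc receptor genes were followed in acutely isolated cells labelled as OPCs, of the WT and DISC1-Δ3 genotypes. The group was chosen by gene symbol and holds 10 of the 18211 genes in the deposited table: C1qa, C1qb and C1qc, the chains of C1q; C3; the anaphylatoxin receptors C3ar1 and C5ar1; the Fc-gamma receptors Fcgr1, Fcgr2b and Fcgr3; and Fcer1g, the common gamma chain. All 10 reached the level needed for testing, as did 13792 genes in all: an RPKM, the read count per transcript length and library total, that was 0.5 or more in 3 or more libraries. OPCs, the glial precursors of myelinating oligodendrocytes, were taken at P7 by PDGFRα immunopanning, in which cells are held on a dish by an antibody to a surface protein, and their mRNA was sequenced in 3 libraries per genotype. The DISC1-Δ3 mice carried NG2-CreERTM and DISC1 exon3 fl/+, so that tamoxifen deletes exon 3 from a single Disc1 allele, in cells in which the NG2 promoter is active. The controls were wildtype mice without CreERT. Both groups were C57BL/6 and received tamoxifen by gavage on 4 consecutive days from P4 to P7. Whether a library held cells of 1 mouse or of several is not given in the sources used here, and p-values measure only the spread between these libraries.

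C1q starts the classical complement pathway: it binds antibody or other tags on a surface and switches on a protease cascade that splits C3, whose fragments mark the surface for uptake. C3a and C5a, the small fragments, are sensed by C3ar1 and C5ar1. Fc-gamma receptors bind antibody directly; the activating receptors signal through the common gamma chain and its ITAM motif, whereas Fcgr2b carries an inhibitory ITIM motif. In the brain these genes are known mainly from microglia, where C1q and C3 take part in the removal of synapses during development.

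In DISC1-Δ3 libraries 9 of the 10 genes were lower and 1, C5ar1, was higher (edgeR's quasi-likelihood test on rounded counts, Benjamini-Hochberg adjustment over all tested genes, threshold 0.05). Among all tested genes 19.5% were lower and 20.4% were higher; 51.1% of the called genes were higher, and 69.2% when libraries were scaled by their totals alone, under which the same 9 and 1 were called among the members. The median log2 fold change was -0.62 over the 10 genes and 0.01 over all tested genes. No gene of the group overlapped between genotypes in RPKM: 9 were lower and 1 was higher in every DISC1-Δ3 library than in every WT library, against 16.1% and 35.9% of all tested genes. The inhibitory receptor Fcgr2b and the activating receptor Fcgr3 fell the furthest, the C1q chains and Fcgr1 followed, and Fcer1g, C3 and C3ar1 fell the least.

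**Figure D1:**
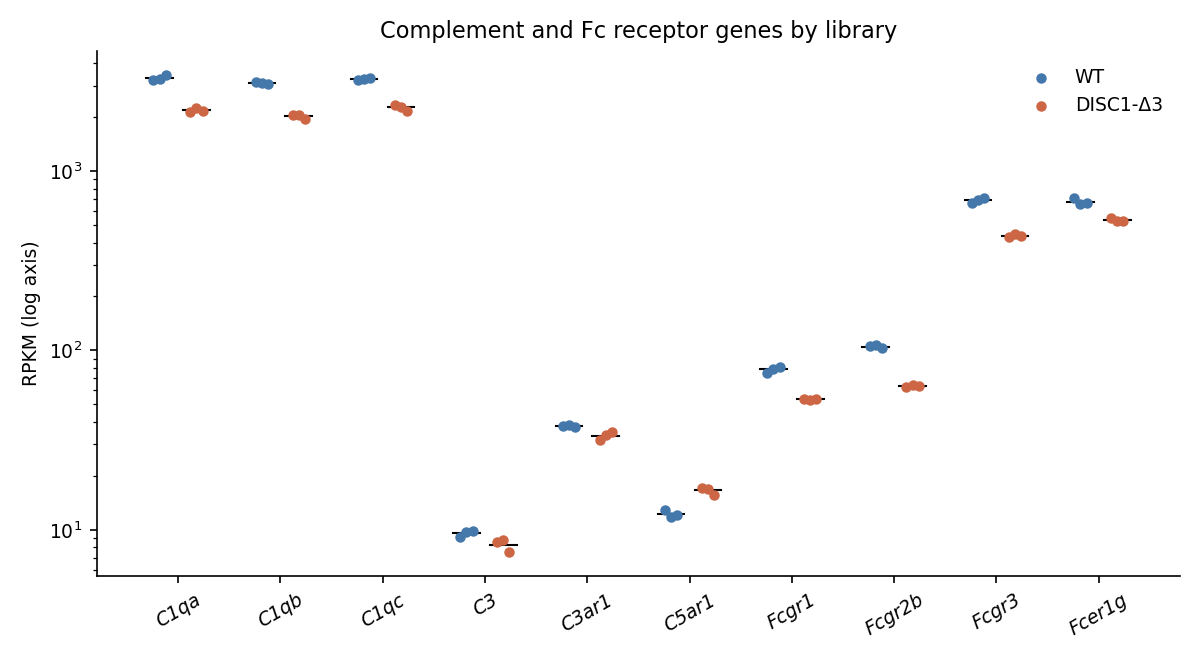
RPKM of the 10 genes on a log axis, with 3 WT libraries in blue and 3 DISC1-Δ3 libraries in orange as points and the group means as black lines. The C1q chains lie at 1943 or above in every library, C3 lies at 9.83 or below, and for C5ar1 alone the DISC1-Δ3 points lie above the WT points.

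The libraries held 13716619 to 16417219 reads assigned to genes. DISC1-Δ3 replicate 3 stood apart from its group: its chi-square per degree of freedom against replicates 1 and 2 was 5.39 and 4.99, whereas the other replicate pairs of either genotype gave 1.80 to 2.97. Without this library all 10 genes still passed the threshold in the same direction. The targeted gene Disc1 had an RPKM of 3.51, 3.34 and 3.81 in WT and of 2.86, 2.44 and 2.85 in DISC1-Δ3 libraries. It was lower without overlap (edgeR, log2 fold change -0.45, SE 0.088, adjusted p = 0.000528). The labelled cell type was checked against markers. Of 10 OPC markers none was at 0, and they summed to 534 to 556 RPKM in WT and 680 to 702 in DISC1-Δ3 libraries. Olig1, an oligodendrocyte lineage transcription factor and the highest of them, had a mean RPKM of 252 in WT libraries and 329 in DISC1-Δ3 libraries. The 20 microglia markers summed to 10851 to 11023 RPKM in WT and 8267 to 8518 in DISC1-Δ3 libraries, so transcripts of microglia were abundant in these panned cells. Each C1q chain lay far above Olig1 in every library.

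The 3 C1q genes lie side by side on the minus strand of chromosome 4 (GRCm38): C1qb at chr4:136880126-136886200, C1qc at chr4:136889801-136892936 and C1qa at chr4:136895916-136898844. The 250 bases before a RefSeq start (GRCm38.p6) are shown for C1qb and C1qc, and for Fcer1g. C1qa had no promoter entry. The windows are chr4:136886201-136886450, chr4:136892915-136893164 and chr1:171234350-171234599, all on the minus strand. Capitals mark GAGGAA, read on either strand, the core of sites bound by PU.1, a transcription factor of myeloid cells.
C1qb: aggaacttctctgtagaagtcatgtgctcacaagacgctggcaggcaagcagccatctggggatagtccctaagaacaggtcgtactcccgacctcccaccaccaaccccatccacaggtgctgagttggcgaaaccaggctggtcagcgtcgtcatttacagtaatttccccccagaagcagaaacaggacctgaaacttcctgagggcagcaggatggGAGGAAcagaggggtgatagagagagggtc
C1qc: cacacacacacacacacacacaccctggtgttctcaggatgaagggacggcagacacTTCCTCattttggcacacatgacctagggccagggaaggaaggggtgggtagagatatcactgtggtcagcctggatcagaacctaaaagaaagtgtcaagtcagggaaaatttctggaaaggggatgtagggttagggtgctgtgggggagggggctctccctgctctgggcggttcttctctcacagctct
Fcer1g: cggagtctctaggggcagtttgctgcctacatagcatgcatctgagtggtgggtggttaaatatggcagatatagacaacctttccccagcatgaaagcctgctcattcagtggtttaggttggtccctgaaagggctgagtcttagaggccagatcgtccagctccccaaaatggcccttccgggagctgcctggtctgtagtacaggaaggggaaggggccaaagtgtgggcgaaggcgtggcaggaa
The match began 30 bases before the start in C1qb and 193 bases before it in C1qc, in the latter on the opposite strand. GAGGAA was in the windows of 4 of 9 members with an entry (C1qb, C1qc, Fcgr1 and Fcgr3) and in 23.3% of 32851 RefSeq promoter windows. GGAANNGAA, an element shared by ETS and IRF factors that does not contain GAGGAA, was in 1 of 9, Fcgr2b, and in 6.99% of all windows. The member figures count genes, Fcgr3 with more than 1 window, whereas the figures for all promoters count single windows. These are matches of letters and do not show binding, and their relation to the fold changes was not tested.

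The C1q chains were among the most abundant transcripts. In WT libraries they ranked 7 to 10 of all genes by RPKM, and in DISC1-Δ3 libraries 14 to 21. Their reads made up 0.875 to 0.904% of all reads in WT and 0.576 to 0.611% in DISC1-Δ3 libraries. C1qa (gene ID 12259), the A chain, had an RPKM of 3204, 3278 and 3454 in WT and of 2149.7, 2262 and 2164 in DISC1-Δ3 libraries. The fitted decrease was -37.3% (log2 fold change -0.67, SE 0.045, adjusted p = 1.65e-09). C1qb (gene ID 12260), the B chain, had an RPKM of 3133, 3100.2 and 3065 in WT and of 2065, 2069 and 1943 in DISC1-Δ3 libraries. It changed by -38.1% (log2 fold change -0.69, SE 0.044, adjusted p = 8.67e-10). C1qc (gene ID 12262), the C chain, had an RPKM of 3239, 3257 and 3311 in WT and of 2353, 2286 and 2172 in DISC1-Δ3 libraries. It changed by -34.2% (log2 fold change -0.60, SE 0.045, adjusted p = 7.22e-09). All 3 chains thus fell by similar amounts, with a wide gap between the lowest WT and the highest DISC1-Δ3 library.

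Within the C1q sum, the share of each chain per transcript length moved little. The C1qa share was 34.2% ± 0.854 (SD, n = 3) in WT and 33.8% ± 0.930 (SD, n = 3) in DISC1-Δ3 libraries (two-sided exact permutation test, p = 0.7). The C1qb share was 32.0% ± 0.780 and 31.2% ± 0.252 (the same exact test, p = 0.3). The C1qc share was 33.8% ± 0.0757 in WT and 35.0% ± 0.722 in DISC1-Δ3 libraries, without overlap (exact p = 0.1, the smallest that 3 against 3 libraries allows). These shares are 3 of 8 ratios computed within libraries, and after Benjamini-Hochberg adjustment over the 8 their exact p-values were 0.8, 0.4 and 0.16.

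C3 and the receptors of its fragments were far less abundant. C3 (gene ID 12266; chr17:57203967-57228136), the central component of the cascade, had an RPKM of 9.10, 9.73 and 9.83 in WT and of 8.53, 8.72 and 7.50 in DISC1-Δ3 libraries. It changed by -19.7% (log2 fold change -0.32, SE 0.073, adjusted p = 0.00218), and in limma on log2(RPKM + 1) it did not pass the threshold (log2 fold change -0.19, adjusted p = 0.0577). The groups came close to each other, at 9.10 and 8.72. C3ar1 (gene ID 12267; chr6:122847140-122856157), the C3a receptor, had an RPKM of 37.8, 38.4 and 37.4 in WT and of 31.5, 33.6 and 34.9 in DISC1-Δ3 libraries. It changed by -16.8% (log2 fold change -0.27, SE 0.047, adjusted p = 0.000216), the smallest decrease of the 9 lower genes.

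C5ar1 (gene ID 12273; chr7:16246743-16259540), the C5a receptor, went the other way. Its RPKM was 12.9, 11.8 and 12.1 in WT and 17.1, 17.0 and 15.6 in DISC1-Δ3 libraries, from 411, 457 and 465 against 572, 641 and 587 reads. It rose by 27.5% (log2 fold change 0.35, SE 0.074, adjusted p = 0.00101), and every DISC1-Δ3 library lay above every WT library. Over 14 other filters, scalings, tests and subsets of libraries its log2 fold change ran from 0.31 to 0.43. The ratio of C3ar1 to C5ar1 RPKM within a library was 3.09 ± 0.158 (SD, n = 3) in WT and 2.02 ± 0.201 (SD, n = 3) in DISC1-Δ3 libraries, without overlap (two-sided exact permutation test, p = 0.1, adjusted 0.16). This ratio was added after the values were seen. C3ar1 was lower and C5ar1 higher in every DISC1-Δ3 library, so the lack of overlap and the exact p of 0.1 were fixed in advance. Hc, which encodes C5, was below the level for testing, with a mean RPKM of 0.0967 in WT and 0.0400 in DISC1-Δ3 libraries.

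The Fc-gamma receptors fell together. Fcgr2b (gene ID 14130; chr1:170960558-170976071), the inhibitory receptor, had an RPKM of 105.2, 106.6 and 103.4 in WT and of 62.6, 64.0 and 63.1 in DISC1-Δ3 libraries. It changed by -43.1% (log2 fold change -0.81, SE 0.048, adjusted p = 3.1e-10), the largest decrease of the 10 genes. Fcgr3 (gene ID 14131; chr1:171051169-171065915), a low-affinity activating receptor, had an RPKM of 668, 694 and 706 in WT and of 428, 445 and 433 in DISC1-Δ3 libraries. It changed by -40.2% (log2 fold change -0.74, SE 0.042, adjusted p = 2.14e-10). Fcgr1 (gene ID 14129; chr3:96282909-96293969), the high-affinity receptor, had an RPKM of 75.2, 79.1 and 81.2 in WT and of 53.6, 52.9 and 53.7 in DISC1-Δ3 libraries. It changed by -35.7% (log2 fold change -0.64, SE 0.046, adjusted p = 5.12e-09). None of the 3 receptors overlapped between genotypes. Fcgr2b and Fcgr3 share sequence: 10.2% of the 50-base windows of Fcgr3 transcripts occur in Fcgr2b, so reads of 50 bases can be split between them. Of 3708 windows of Fcgr2b transcripts 395 (10.7%) occur in another gene, 166 of them in Fcgr3. The Fcgr2b locus also overlaps an antisense gene, and the counting is not stated to use strand.

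Fcgr2b made up 12.05% ± 0.398 (SD, n = 3) of the RPKM of the 3 receptors in WT and 11.4% ± 0.0549 (SD, n = 3) in DISC1-Δ3 libraries. The lowest WT library had 11.6% and the highest DISC1-Δ3 library 11.5% (two-sided exact permutation test, p = 0.1, adjusted 0.16).

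Fcer1g (gene ID 14127; chr1:171229572-171234349), the signalling chain of the activating receptors, fell less than the receptors. Its RPKM was 705, 653 and 667 in WT and 548, 529 and 526 in DISC1-Δ3 libraries. It changed by -24.8% (log2 fold change -0.41, SE 0.044, adjusted p = 6.62e-07). In WT libraries Fcgr3 and Fcer1g could not be ordered, since their libraries overlapped, whereas in DISC1-Δ3 libraries Fcer1g lay above Fcgr3 without overlap. The ratio of Fcgr3 to Fcer1g RPKM was 1.02 ± 0.0652 (SD, n = 3) in WT and 0.815 ± 0.0303 (SD, n = 3) in DISC1-Δ3 libraries (two-sided exact permutation test, p = 0.1, adjusted 0.16); this ratio, too, was added after the values were seen. Tyrobp, the other ITAM adaptor of myeloid cells, moved alongside Fcer1g. The ratio of Fcer1g to Tyrobp was 0.715 ± 0.0299 (SD, n = 3) in WT and 0.719 ± 0.00420 (SD, n = 3) in DISC1-Δ3 libraries, with overlap (exact permutation p = 0.8).

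**Figure D2:**
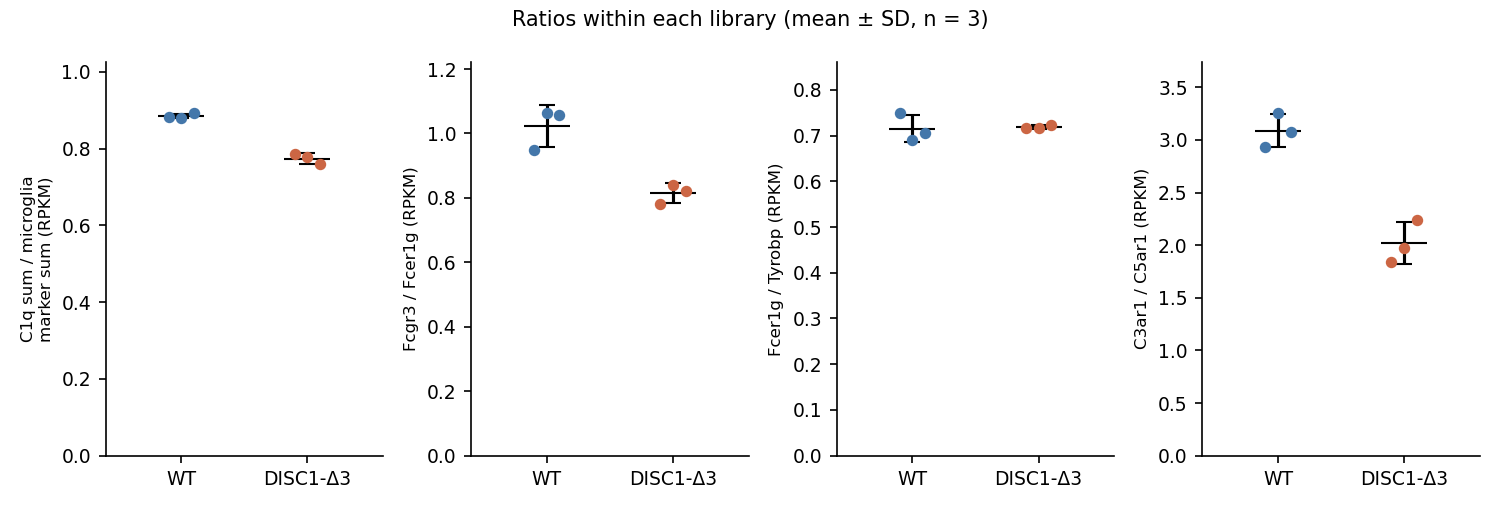
Ratios of RPKM within each library, with 3 WT libraries in blue and 3 DISC1-Δ3 libraries in orange, and black marks for the mean ± SD. The C1q sum per microglia marker sum, Fcgr3 per Fcer1g and C3ar1 per C5ar1 do not overlap between genotypes, whereas Fcer1g per Tyrobp does, at 0.715 and 0.719. For C3ar1 per C5ar1 the lack of overlap follows from the levels of each gene.

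The order of levels was otherwise kept. By mean RPKM it ran in WT libraries from C1qa and C1qc, which overlapped, through C1qb, then Fcgr3 and Fcer1g, which overlapped, to Fcgr2b, Fcgr1, C3ar1, C5ar1 and C3, each of these apart from its neighbours. In DISC1-Δ3 libraries C1qc and C1qa overlapped at the top, and all other neighbours were apart.

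Microglia markers moved in the same direction as the group. Of 20 markers 19 were lower and none was higher, with a median log2 fold change of -0.46. P2ry13, a purinergic receptor, did not pass the threshold (log2 fold change -0.06). Abundant ones included Csf1r, the receptor for colony-stimulating factor 1 (log2 fold change -0.58), and Laptm5, a lysosomal membrane protein (log2 fold change -0.42). Their summed RPKM changed by -23.4%, and no marker was at 0 in any library. In these bulk samples fewer cells of a type and less RNA per cell cannot be told apart. The C1q sum per microglia marker sum was 0.885 ± 0.00591 (SD, n = 3) in WT and 0.774 ± 0.0136 (SD, n = 3) in DISC1-Δ3 libraries, a change of -12.5% without overlap (two-sided exact permutation test, p = 0.1, adjusted 0.16). No marker of the 20 had a lower log2 fold change than Fcgr2b or Fcgr3, whereas 12 had a lower one than Fcer1g and 17 a lower one than C3 or C3ar1. In between, 1 marker was lower than C1qb (Ly86, log2 fold change -0.71), 3 were lower than C1qa, and 5 were lower than C1qc or Fcgr1.

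Markers of other macrophages and of blood cells were also read. Of 9 markers of border macrophages 5 were lower and none was higher. The other 4 did not pass the threshold and had positive log2 fold changes (Ms4a7 0.44, Lyve1 0.20, Pf4 0.14 and Cd163 0.14). The 9 summed to 215 to 226 RPKM in WT and 182 to 190.5 in DISC1-Δ3 libraries, with none at 0. Stab1, 1 of the lower ones, was the most abundant, with a mean RPKM of 89.7 in WT libraries. Of 8 tested blood myeloid markers 5 were lower and 1, Ltf, a neutrophil granule protein, was higher; the 9 listed summed to 291 to 315 and to 205 to 219 RPKM, with none at 0. The 9 lymphoid and mast cell markers summed to at most 9.20 RPKM, and 1 of them was at 0 in a library; of the 5 tested 1 was lower, the B cell gene Cd79a, and none was higher. The part of microglia and of these cells in the results was not tested.

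The fit was repeated with libraries scaled by the reads of the 20 microglia markers, an alternative added after the values were seen, which asks how each gene moved relative to those markers. It moved the median of all tested genes to 0.48, with 2.6% of them lower and 76.5% higher. On this scale 6 of the 10 genes remained lower: Fcgr2b (log2 fold change -0.34, adjusted p = 1.22e-05), Fcgr3 (-0.27, adjusted p = 8.6e-06), C1qb (-0.22, adjusted p = 1.29e-05), C1qa (-0.20, adjusted p = 8.91e-05), Fcgr1 (-0.17, adjusted p = 0.00353) and C1qc (-0.13, adjusted p = 0.00134). The other 4 had positive values: Fcer1g 0.06 (adjusted p = 0.158) and C3 0.15 (adjusted p = 0.0605) did not pass the threshold, and C3ar1 0.21 (adjusted p = 0.00167) and C5ar1 0.82 (adjusted p = 2.74e-07) were higher. Relative to the summed reads of the 20 markers the C1q chains and Fc-gamma receptors were thus lower, though not relative to every single marker for the C1q chains and Fcgr1. Both anaphylatoxin receptors were higher, as were 76.5% of all tested genes. C3ar1 lay below the median of all tested genes on this scale, and C5ar1 lay above it.

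**Figure D3:**
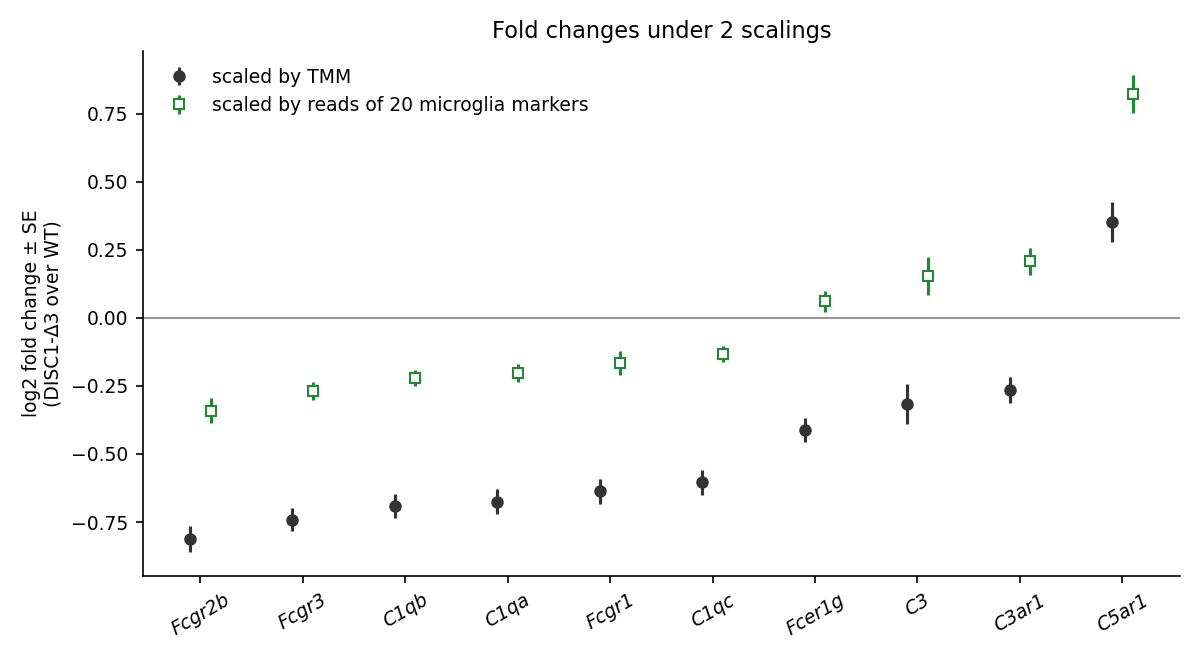
Fitted log2 fold changes (DISC1-Δ3 over WT, ± SE) of the 10 genes, scaled by TMM over all tested genes (black circles) and by the reads of 20 microglia markers (green squares). C5ar1 is above 0 on both scales, 6 genes are below 0 on both, and Fcer1g, C3 and C3ar1 change sign.

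The rest of the complement system did not move as a block. Of 48 other complement genes listed 44 were in the table and 23 were tested; 9 were lower, 5 were higher and 9 did not pass the threshold, with a median log2 fold change of -0.14. Cfb, complement factor B of the alternative pathway, fell the furthest, from a mean RPKM of 29.3 ± 1.40 (SD, n = 3) in WT to 10.9 ± 0.174 (SD, n = 3) in DISC1-Δ3 libraries (log2 fold change -1.50, SE 0.064, adjusted p = 3.78e-12). C5ar2, the second C5a receptor, had a log2 fold change of -0.62 (SE 0.193, adjusted p = 0.0159). C5ar2 had a mean RPKM of only 1.84 in WT libraries, and its direction was the opposite of C5ar1. The largest rises were Itgax, an integrin chain of complement receptor 4 (log2 fold change 1.08, SE 0.108, adjusted p = 3.25e-07), Cd59a, which blocks the membrane attack complex (log2 fold change 1.06, SE 0.148, adjusted p = 1.64e-05), and Susd4, a complement inhibitor (log2 fold change 0.33, SE 0.073, adjusted p = 0.00148). The other 2 that rose were Vtn, vitronectin (log2 fold change 0.33), and Serping1, the C1 inhibitor (log2 fold change 0.31).

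Downstream of C1q, C4b (log2 fold change -0.57) and C2 (-0.39), which form the classical C3 convertase, were lower. C4b has a near-identical copy, C4a, and reads may be divided between them. Fcna, C1ra, C1s1 and Masp1, the other 4 tested initiating components, did not pass the threshold. Of the terminal pathway only C8g was tested, at a log2 fold change of -0.19 (adjusted p = 0.707), and 5 further listed genes had at most 10 reads in any library. Among the receptors that bind C3 fragments, Itgam (log2 fold change -0.33) and Itgb2 (-0.62), the chains of complement receptor 3, were lower, in contrast to Itgax.

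**Figure D4:**
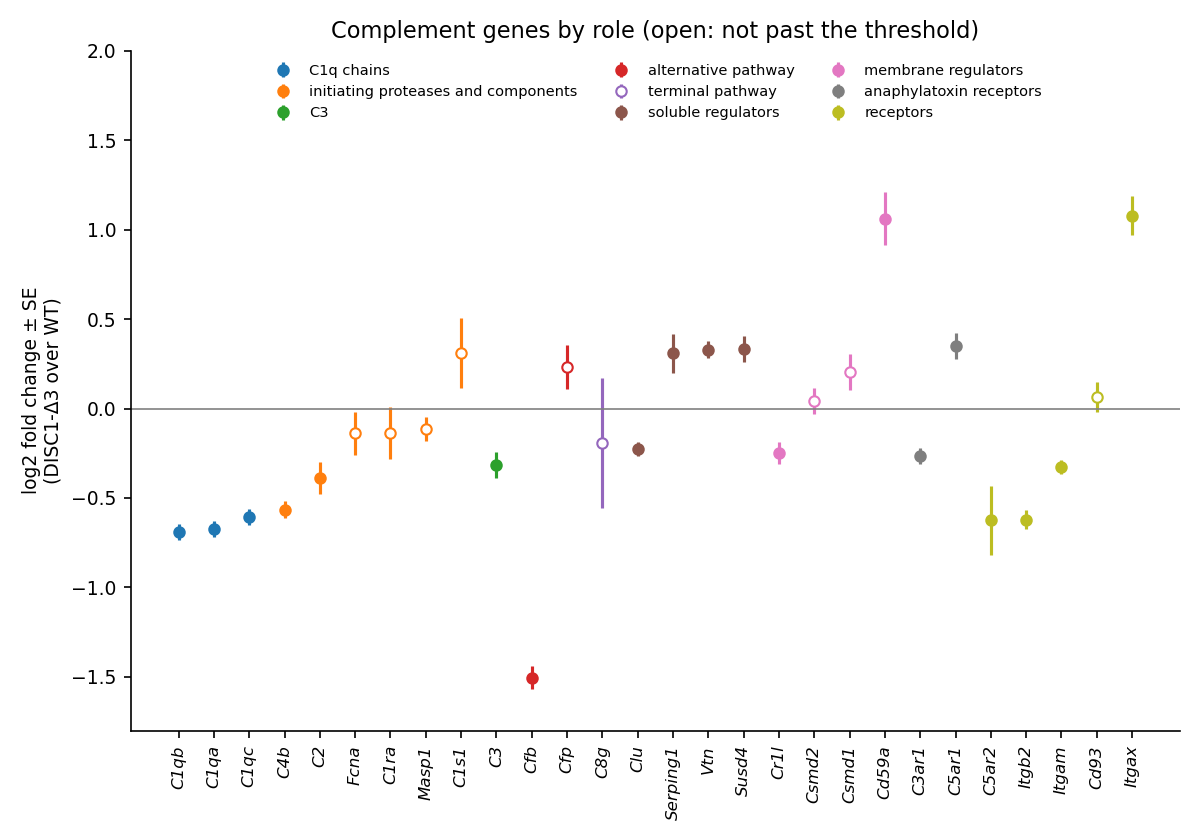
Fitted log2 fold changes (DISC1-Δ3 over WT, ± SE) of complement genes, coloured by role; filled points passed the threshold and open points did not. The C1q chains lie between -0.60 and -0.69, Cfb is the lowest at -1.50, and Cd59a and Itgax are the highest.

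The other tested Fc receptor genes were all lower, 5 of 5 tested of 13 listed and 12 in the table, with a median log2 fold change of -0.77. They were Fcgr4, an activating receptor whose gene lies between Fcgr2b and Fcgr3 (log2 fold change -0.99, SE 0.099, adjusted p = 2.92e-07), Trim21, a cytosolic antibody receptor (-0.85), Fcrl1 (-0.77), Fcrls, an Fc receptor-like gene of microglia (-0.57), and Fcgrt, the neonatal Fc receptor (-0.52). Of 17 genes of ITAM and ITIM signalling 14 were lower and none was higher, with a median of -0.52. The largest decreases were in Fgr, a Src-family kinase (log2 fold change -1.17, adjusted p = 0.000145), Dok3, an adaptor (-0.91, adjusted p = 2.7e-07), and Pik3cg, a phosphoinositide 3-kinase subunit (-0.87, adjusted p = 7.97e-09). Blnk, Lcp2 and Dok2 did not pass the threshold. Relative to the microglia marker reads, a scale on which 2.6% of all tested genes were lower and 76.5% higher, 3 of the 23 tested complement genes were lower (Cfb and Itgb2 among them) and 16 were higher (median 0.34 on the log2 scale). Among the 5 Fc receptor genes 2 were lower (Fcgr4 and Fcrls) and none was higher. Of the 17 signalling genes 4 were lower (Fgr, Dok3, Pik3cg and Inpp5d) and 3 were higher (Blnk, Lcp2 and Syk).

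**Figure D5:**
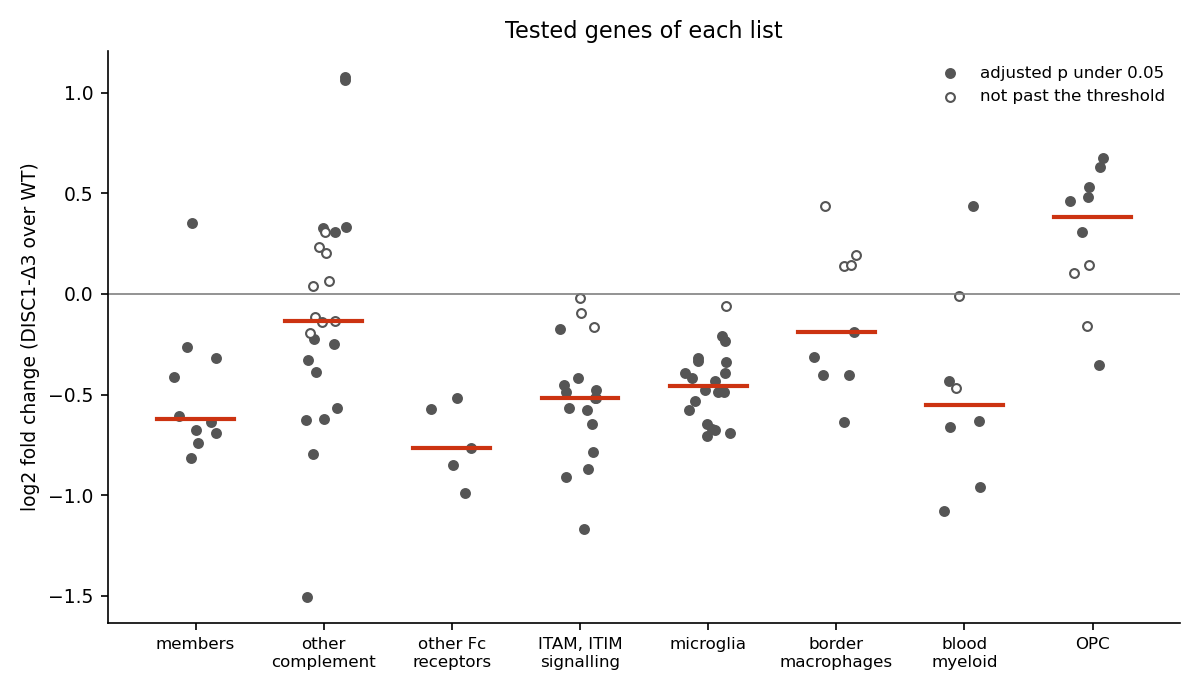
Fitted log2 fold changes (DISC1-Δ3 over WT) of the tested genes in 8 lists; filled points passed the threshold, open points did not, and red lines are medians. Medians are -0.62 for the members, -0.14 for other complement genes, -0.46 for microglia markers and 0.38 for OPC markers.

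The genes whose profile over the 6 libraries was most like the mean of the C1q chains were sought among 8847 tested genes with a mean RPKM of at least 5, by the Euclidean distance of centred log2 CPM. They were Ptgs1 (distance 0.0261), Myo1g (0.0628), Slco2b1 (0.0706), Lgals3bp (0.0756) and Cables1 (0.0770), with log2 fold changes of -0.64 to -0.68. Centring was over all 6 libraries, so the distance includes the genotype difference. A near gene thus has a fold change like that of the C1q chains by selection. The C1q chains themselves were at 0.0673 to 0.0793, Fcgr1 at 0.0965 and Fcgr3 at 0.123, whereas C3ar1 was at 0.507 and C5ar1 at 1.24.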

How the data were processed

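mRNA from 3 WT and 3 DISC1-Δ3 OPC preparations was read as single-end 50-base reads. The authors deposited 2 columns per library for 18211 genes, an expected count and an RPKM. RPKM was deposited as the count divided by transcript length and library total, without further scaling between libraries. The submitters' processing notes name Bowtie2 2.2.5 and mm10; the counter and the annotation are not given in the sources used here, and the study names DESeq2. Of the expected counts above 0, 90.2% are whole, and of 60 values of the members 2 are not (Fcgr2b and Fcgr3 in DISC1-Δ3 replicate 2). Another 4 columns with group means were not used.

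Expected counts were rounded, scaled by TMM and compared with the quasi-likelihood test of edgeR 4.0.16 (R 4.3.3), with genotype as the only term, on the 13792 genes that reached an RPKM of 0.5 in 3 or more libraries. P-values are two-sided and Benjamini-Hochberg adjusted over all tested genes. TMM scaling makes fitted decreases larger than the ratios of mean RPKM. Ratios within libraries were compared by exact permutation tests (scipy 1.17.1). Reads carry no molecular identifiers, and depth limits only genes of few reads. The alternatives tried were testing all genes with a read, a stricter RPKM minimum of 1, median-of-ratios scaling, library totals, DESeq2 1.42.0, limma 3.58.1 on log2(RPKM + 1) and log2(RPKM + 0.1), the replicate block and each library left out. The fits were tested on simulated data in which far fewer genes changed than were called here. That test does not show how TMM scaling acts when many genes change.

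The members, lists and tests were chosen with earlier results of these data known. All members and Disc1 were named, together with up to 3 rises and 3 falls per list, the members of counts of 5 or fewer, the 3 most abundant markers of a list and the 5 nearest profiles; some genes that this rule names are not reported here. Genes named beyond this rule (C1ra, C1s1, Masp1, Fcna, C4b, C4a, C2, C8g, Itgam, Itgb2, Hc and Tyrobp) were picked for their role, with values known. Positions, promoters and transcripts came from RefSeq (GRCm38.p6) and GENCODE M21, both of the mm10 assembly; 18085 of 18211 genes matched by gene ID.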

Additional observations from a re-analysis of the deposited data

How the results depend on the processing

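Over 14 alternatives for each member, 138 log2 fold changes kept their direction and side of the threshold and 2 lost the threshold, both for C3 in limma (-0.19 on log2(RPKM + 1) and -0.21 on log2(RPKM + 0.1), adjusted p = 0.0577 and 0.0563), so that 9 of 10 members passed there. Without any 1 library all 10 passed, and the count over all genes ran from 4342 to 6232. With scaling by microglia marker reads, chosen after seeing the data, C3 (0.15), C3ar1 (0.21) and Fcer1g (0.0603) reversed in direction. Then 3 other complement genes were lower and 16 higher, 2 other Fc receptors were lower and none higher, and 4 signalling genes were lower and 3 higher, while 10906 of all tested genes passed, 358 lower and 10548 higher; this scaling by construction holds the markers level. Scaling by library totals moved the median of all genes from 0.01 to 0.09 and the share of higher among called genes from 51.1% to 69.2%; limma gave 69.2% with either pseudocount. Ratios without any 1 library ran from -1.13% to 2.94% for Fcer1g to Tyrobp (-1.13% and -0.14% without WT replicates 2 and 3) and from -2.27% to 0.35% for the C1qa share (0.16% without WT replicate 3 and 0.35% without DISC1-Δ3 replicate 1), so both changed sign. Same-numbered libraries did not deviate together (correlations 0.0444, 0.0263 and -0.0288 across genes). The replicate block left 10 members and 5429 genes past the threshold and changed no member's call. With 3 libraries per genotype no exact test of a ratio can go below 0.1.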

Other observations

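Genes of proteins that resemble C1q but act outside complement were also read, with C1qbp, named for binding C1q, added to the list. Of 16 listed genes, C1qbp included, 13 were tested, none was lower, 6 were higher and 7 did not pass the threshold, with a median log2 fold change of 0.53, against 20.4% higher among all tested genes; the difference from the C1q chains was not tested. The largest rises were Cbln1, a synaptic organiser (log2 fold change 1.56, SE 0.214, adjusted p = 1.34e-05, edgeR), C1qtnf7 (1.30, adjusted p = 0.0187) and Cbln2, a relative of Cbln1 (0.94, adjusted p = 0.000169). Cbln1 and Cbln2 were low in both genotypes, with mean RPKM of 0.877 and 1.30 in WT and 2.78 and 2.66 in DISC1-Δ3 libraries. C1qtnf7, 1 of the 6, was lower still, with a mean RPKM of 0.203 in WT and 0.613 in DISC1-Δ3 libraries. It reached the level for testing only through the DISC1-Δ3 libraries, so the filter favoured a rise. C1ql1, a ligand of adhesion receptors that is expressed by OPCs, had a mean RPKM of 23.9 ± 2.16 (SD, n = 3) in WT and 42.4 ± 3.30 (SD, n = 3) in DISC1-Δ3 libraries (log2 fold change 0.74, SE 0.084, adjusted p = 1.47e-06); it was singled out after its values were seen.

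Markers of the remaining cell types moved in both directions. Of 10 OPC markers 6 were higher and 1, Ptprz1 (log2 fold change -0.35), was lower; Gpr17, a receptor of committed precursors, rose the most (0.68). Of 8 markers of mature oligodendrocytes 5 were lower (Mag -0.54, Cldn11 -0.47, Mog -0.45 and Mbp -0.16 among them) and none was higher. All 5 pericyte markers were higher, with Abcc9, a potassium channel subunit, at 0.67, as were 4 of 6 endothelial and 6 of 7 neuronal markers. Of 7 astrocyte markers 4 were lower and 2, Gfap (0.34) and Sox9 (0.14), were higher. The part of these cells in the members' values was not tested.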
